A study of Rattus norvegicus with 20 samples.

Results

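The cytosolic ribosome is built from a small subunit, which reads the messenger RNA, and a large subunit, which joins amino acids. Each subunit carries its own set of ribosomal proteins, named Rps and Rpl, around ribosomal RNA. The messengers of these proteins are among the most abundant of a cell, and most begin with a terminal oligopyrimidine (TOP) motif, a cytosine followed by a run of pyrimidines through which mTORC1 controls their translation. Islet beta cells depend on this machinery for the making of proinsulin.

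The genes were chosen by symbol: Rpl or Rps followed by digits and at most one further letter, with Rpsa, Rplp0, Rplp1 and Rplp2 added. Of 14218 genes with a probe set of their own on an Affymetrix rat array, 44 met this rule, 30 of the large and 14 of the small subunit. Rplp1 and Rplp2 were not among them. A further 33 probe sets list several symbols, at least 1 of which meets the rule, and no gene is named from those.

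Islets came from male Wistar rats aged 8 weeks and were kept in medium with 10% serum and 8 mM glucose. Of 20 samples, 5 were untreated islets and 5 each had received an adenovirus carrying GFP, Nr4a1 or Nr4a3, where Nr4a1 and Nr4a3 are orphan nuclear receptors and GFP is the green fluorescent control protein. Virus stayed on for 18 h and islets were collected at 48 h. The groups follow the sample titles and characteristics, whereas the treatment protocol names viruses for beta-galactosidase and Nkx6.1. Nkx6-1, chosen here after its values were seen, differed from GFP by -0.42 ± 0.119 with Nr4a1 (limma adjusted p = 0.0296) and by -0.16 ± 0.119 with Nr4a3 (adjusted p = 0.601), and whether its probe set would read a viral transcript is not known. Replicates are described as biological, without the number of animals each sample drew on, so p-values measure the spread between these samples. Which promoter the viruses used and which share of cells they reached is not stated in the labels. The arrays measured whole islets, so fewer cells of a type and less RNA per cell cannot be told apart.

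Start-site sequences from the RefSeq promoter table (build GRCr8) were found for 39 of the 44 genes. A cytosine at the annotated start followed by at least 4 pyrimidines (C or T, on the transcribed strand) stood in 12 of the 39 (30.8%), against 2.63% of all 33469 start sites in the table. Shown are 15 bases before and 15 after the annotated start, with any such run in capitals, first for genes that have it and then for genes whose annotated start lacks it. Rplp0 and Rps15 lie at chr12:46718376-46718405 and chr7:10068101-10068130 on the minus strand, and Rpl14 and Rpl37a at chr8:129163605-129163634 and chr9:81748076-81748105 on the plus strand. Rpsa, Rpl18 and Rps27l lie at chr8:128728864-128728893, chr1:105325255-105325284 and chr8:76443643-76443672, all on the plus strand. Rplp0, Rpsa and Rpl18 are shown because they passed a test described further on. Rps15 and Rpl14 were chosen because they were among the lowest in 1 array that stands apart, and Rpl37a for its long run. Rps27l, a paralogue, had the largest difference of the 44 genes between Nr4a1 and GFP.
Rplp0: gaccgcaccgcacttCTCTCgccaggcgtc
Rps15: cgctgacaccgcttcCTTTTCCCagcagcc
Rpl14: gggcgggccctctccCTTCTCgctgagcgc
Rpl37a: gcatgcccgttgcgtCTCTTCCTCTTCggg
Rpsa: cctttccgcgctaccctggaacgggtccgt
Rpl18: tctggacctggtctagcaggaggcgccatc
Rps27l: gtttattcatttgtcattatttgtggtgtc

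A pyrimidine run of 8 or more anywhere in the same 30 bases was found in 24 of the 39 genes (61.5%) and in 11.4% of all start sites. In the comparison of Nr4a1 with GFP described further on, the median log2 difference was 0.085 over the 12 genes with the run at their annotated start (-0.071 to 0.216) and 0.063 over the 27 without it (-0.0038 to 0.30), so the ranges overlapped.

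The mean over 20 arrays was at least 12 on the log2 intensity scale for 38 of the 44 genes, called bright here. Intensities of different probe sets do not rank transcripts, and this split serves only to separate strong from weak signals. The mean log2 intensity of the other 6 was lower: Rps13 (4.74), Rpl30 (4.88), Rpl28 (5.24), Rpl3l (5.82), Rpl39 (6.89) and Rps27l (9.58). Rpl3l is the muscle paralogue of Rpl3, and Rps27l is a p53-inducible paralogue of Rps27. The symbols Rps13, Rpl28 and Rpl30 occur again among the probe sets with several symbols, whereas no bright gene shares its symbol with such a set.

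One array, Nr4a3 replicate 2, departed from the rest. The mean log2 value of the 44 genes was 11.81 there and between 12.29 and 12.56 in each other array. Of the 38 bright genes 33 (86.8%) lay below all 19 other arrays, as did 54.4% of 281 other genes of that brightness and 32.5% of all genes. The median deviation from the mean of the 19 arrays was -0.75 for the bright ribosomal protein genes, -0.33 for the others as bright and -0.018 for all genes. In the same array the 3' minus 5' difference of the control probe sets was 4.62 for beta-actin and 2.06 for GAPDH, against at most 2.21 and 0.739 in the others. The part of RNA quality in these values was not tested.

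The departure was far from uniform within the group, with 14 genes lower by more than 1 on the log2 scale. They are 31.8% of the 44 and 36.8% of the bright genes, against 26.7% of other genes as bright and 9.87% of all genes. Rps15, a protein of the small subunit's head, stood at 10.50 in Nr4a3 replicate 2, a deviation of -2.46, where the other 19 arrays spanned 12.83 to 13.06. Rpl7 deviated by -2.31, Rpsa by -2.28 and Rpl14 by -1.88. Rps16, Rpl24, Rps9 and Rpl34 deviated by -1.79, -1.67, -1.64 and -1.53. At the other end Rps23 deviated by -0.15, just below the lowest of the other 19 arrays (14.04 against 14.05). The bright genes Rpl41 (-0.14), Rpl35a (-0.070), Rps28 (0.097) and Rpl23a (0.116) lay within the range of those arrays. Rps27l (1.26), Rpl30 (1.09), Rps13 (0.58), Rpl39 (0.51) and Rpl22 (0.30) lay above all 19 other arrays, 4 of these 5 being dim probe sets. Over the 44 genes this share was 11.4%, against 26.6% of all genes. Over the bright genes it was 2.63%, against 17.4% of other genes as bright. Rpl22, Rpl23a, Rpl34, Rpl35a, Rpl39, Rpl41 and Rps16 were singled out after their values were seen.

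**Figure D1:**
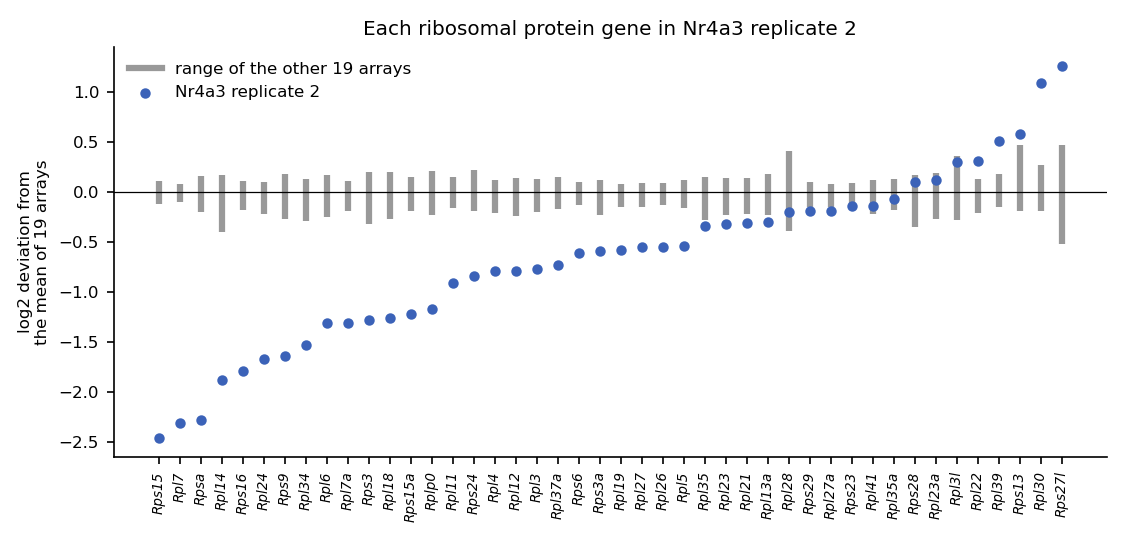
Log2 deviation of each of the 44 ribosomal protein genes in Nr4a3 replicate 2 (points) from its mean over the other 19 arrays, whose range is the grey bar. Rps15 is lowest at -2.46 and Rps27l highest at 1.26, and 33 genes lie below their bar.

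Probe sets of the same gene differed in this array too. Rpl7, a protein at the surface of the large subunit, has a bright set that deviated by -2.31 and a dimmer one (mean 8.20) that deviated by 2.52. The sets of Rpsa, which sits on the small subunit and is also known as the laminin receptor precursor, deviated by -2.28, -0.66 and -0.57. For Rpl14 the values were -1.88 and 0.62. The 5 genes with more than 1 probe set of their own are Rpl14, Rpl3, Rpl7, Rps24 and Rpsa. Over the 33 probe sets with several symbols, 30 of them with a mean log2 value of at least 12, the median deviation was -1.07.

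Among the other 19 arrays the bright genes shifted together by small amounts. In GFP replicates 4 and 5 all 38 lay below their mean over the 19 arrays. In untreated replicate 2, Nr4a1 replicate 2 and Nr4a3 replicate 3 all 38 lay above it. The remaining arrays had them on both sides, for example 14 below and 24 above in Nr4a1 replicate 1. GFP replicate 4 was the lowest, with a median deviation of -0.195, against -0.0962 to 0.0993 in the other 18. The median spread within groups (SD over 19 arrays) was 0.089 for the bright genes, 0.105 for other genes as bright and 0.136 for all genes. With Nr4a3 replicate 2 included, these values were 0.193, 0.183 and 0.182. Results are given with and without that array, since it enters every comparison through the shared estimate of spread.

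**Figure D2:**
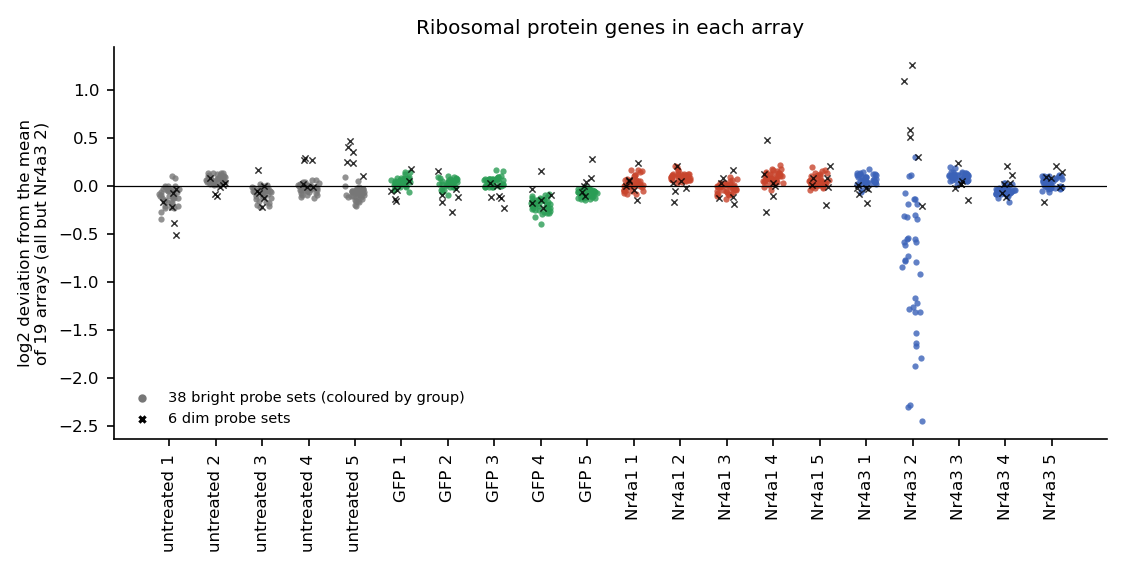
Log2 deviation of each ribosomal protein gene from its mean over 19 arrays (all but Nr4a3 replicate 2), by array, with 38 bright genes as dots coloured by group and 6 dim genes as crosses. The bright genes all lie on the same side of 0 in some arrays and on both sides in others. They are lowest in GFP replicate 4 apart from Nr4a3 replicate 2, where they spread from -2.46 to 0.30.

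Across groups the mean of the bright genes was 13.43 ± 0.069 (SD, log2, n = 5) in untreated islets, 13.44 ± 0.108 (SD, n = 5) with GFP, 13.52 ± 0.049 (SD, n = 5) with Nr4a1 and 13.33 ± 0.405 (SD, n = 5) with Nr4a3. Without its replicate 2 the Nr4a3 mean was 13.51 ± 0.065 (SD, n = 4). In rising order the groups are then untreated, GFP, Nr4a3 and Nr4a1, and each differs from its neighbour by no more than the larger of their SDs.

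Nr4a1 against GFP asks what the added receptor changes beyond the virus. Ribosomal protein genes were slightly higher with Nr4a1: 40 of 44 had a positive difference, and the median log2 difference was 0.061, against -0.0013 over all genes. The median deviation per array averaged -0.028 with GFP and 0.043 with Nr4a1 for the bright genes. For the 281 other genes as bright it averaged -0.010 and 0.018. The count of 40 and the median of 0.061 fell to 33 and 0.031 when each array was centred on its median. After a repeated quantile normalization they were 30 and 0.017. Without GFP replicate 4, the lowest of the 10 arrays compared, they were 32 and 0.025. The median over all genes in these settings was, in the same order, -0.0307, -0.0241 and -0.00062. None of the 44 passed the test with all arrays, where 8.71% of all genes were called (limma, adjusted p under 0.05), and none reached an unadjusted p under 0.05, against 19.9% of all genes.

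Without Nr4a3 replicate 2, 3 of the 44 genes rose, Rpsa, Rplp0 and Rpl18 (6.82%, against 12.2% of all genes that were called higher and 19.1% called in either direction). An unadjusted p under 0.05 was reached by 11 of the 44 (25%), against 30.8% of all genes. Rpsa measured 13.04, 12.98, 12.97, 13.02 and 12.98 in Nr4a1 replicates 1 to 5 and 12.84, 12.82, 12.87, 12.72 and 12.75 in the GFP replicates. The lowest Nr4a1 array thus lay above the highest GFP array. The difference of 0.20 ± 0.056 (SE, log2, n = 5 per group) is 1.15-fold, with a limma adjusted p of 0.0171 that was 0.833 with all arrays.

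Rplp0, which anchors the stalk that recruits translation factors to the large subunit, was 13.74, 13.78, 13.63, 13.69 and 13.70 with Nr4a1 and 13.56, 13.48, 13.64, 13.34 and 13.43 with GFP. GFP replicate 3 slightly exceeded Nr4a1 replicate 3, and the other 4 Nr4a1 arrays lay above all GFP arrays. The difference was 0.22 ± 0.062 (SE, n = 5 per group), 1.16-fold, with a limma adjusted p of 0.0188, and 0.579 with all arrays. Rpl18 of the large subunit was 13.36, 13.34, 13.32, 13.42 and 13.45 with Nr4a1 and 13.24, 13.31, 13.24, 13.00 and 13.10 with GFP. Both groups were separate, by a narrow margin. It differed by 0.20 ± 0.066 (SE, n = 5 per group), 1.15-fold, at a limma adjusted p of 0.0411, and 0.647 with all arrays. With GFP replicate 4 left out as well, Rpsa alone kept its call (0.18, limma adjusted p = 0.0455), while Rplp0 had an adjusted p of 0.0548 and Rpl18 of 0.114.

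Groups that did not overlap, all with Nr4a1 higher, were found for 4 of the 44 genes, Rpsa, Rpl18, Rpl37a and Rpl41, while 10.6% of all genes had this pattern. Rpl37a differed by 0.14 ± 0.052 (limma adjusted p = 0.0602 without Nr4a3 replicate 2) and Rpl41, one of the shortest proteins known, by 0.12 ± 0.056 (adjusted p = 0.150). Rpl37a and Rpl41 were named for this pattern after it was seen. Untreated arrays reached 13.64 for Rpl37a and 13.93 for Rpl41, within the Nr4a1 ranges of 13.62 to 13.75 and 13.83 to 13.95. In the fit without Nr4a3 replicate 2 the 95% intervals of all 38 bright genes stayed within 0.346 of 0 in either direction.

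Rps27l had the largest difference of the 44 genes. It was 9.57, 9.72, 9.40, 9.99 and 9.60 with Nr4a1 and 9.38, 9.42, 9.28, 9.29 and 9.42 with GFP. Nr4a1 replicate 3 lay among the GFP arrays and the other 4 above them. The difference of 0.30 ± 0.20 (SE, n = 5 per group) had a limma adjusted p of 0.468, and 0.124 without Nr4a3 replicate 2. The adjusted p was 0.044 in a limma fit to these 10 arrays alone and 0.0361 in one with array weights. The untreated arrays spanned 9.00 to 9.81 and so covered all 5 GFP arrays and each Nr4a1 array but replicate 4. Rpl14 (0.18 ± 0.078, limma adjusted p = 0.125 without Nr4a3 replicate 2) completed the 5 largest differences.

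**Figure D3:**
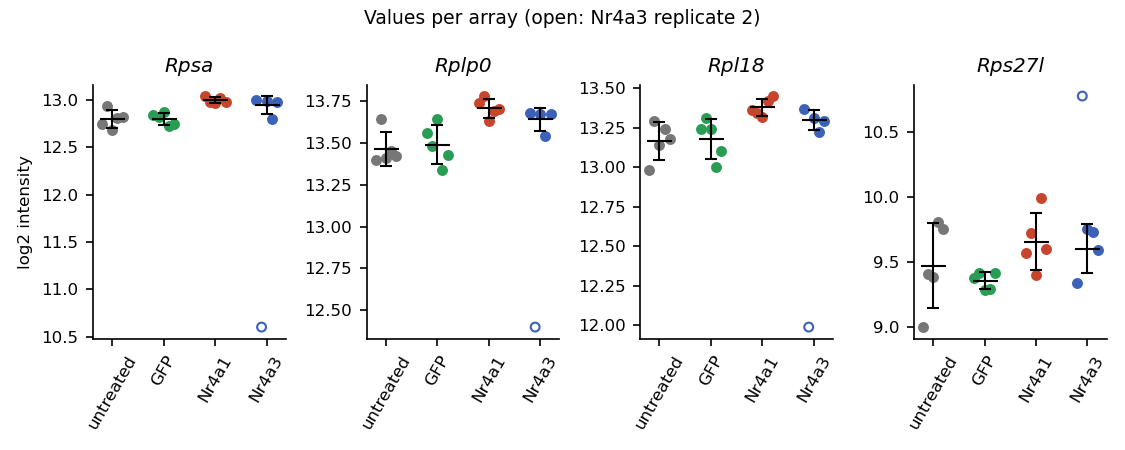
Log2 intensity of Rpsa, Rplp0, Rpl18 and Rps27l in each array by group, with mean and SD drawn without Nr4a3 replicate 2, which is the open circle. Nr4a1 arrays lie above GFP arrays for Rpsa and Rpl18, and the open circle is lowest in all genes shown but Rps27l, where it is highest.

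Other values moved with this comparison. All 11 acinar cell markers rose with Nr4a1 (median log2 difference 2.85), their mean running from 10.47 to 11.92 with Nr4a1, from 7.13 to 9.86 with GFP and from 7.27 to 10.9 in untreated islets. Of 8 endothelial markers 6 fell (75%, median -0.69), as did 2 of 11 islet hormone cell markers (18.2%), against 2.55% of all genes. The mean of the hormone cell markers overlapped, at 12.7 to 13.04 with Nr4a1 and 12.87 to 13.05 with GFP. Over all arrays it ran from 12.14 in Nr4a3 replicate 2 to 13.12 in untreated replicate 1. The GAPDH 3' minus 5' difference lay at 0.271 to 0.357 with Nr4a1, below its 0.499 to 0.739 with GFP. That of beta-actin overlapped, at 1.5 to 2.02 with Nr4a1 and 1.73 to 2.21 with GFP. GFP replicate 4, lowest in ribosomal proteins of these 10 arrays, had the highest acinar mean of the GFP group. The part of the marker, GAPDH and beta-actin values in the ribosomal protein differences was not tested, and 1 array cannot show it.

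Further genes had smaller differences, none of them called. Rps23, a protein near the decoding centre, had means that differed by 0.053 ± 0.052 between Nr4a1 and GFP without Nr4a3 replicate 2 (limma adjusted p = 0.550). Rps6, the phosphorylated target of the S6 kinases, was 14.09, 14.15, 14.07, 14.15 and 14.11 with Nr4a1 and 14.12, 14.07, 14.11, 13.97 and 14.05 with GFP. Its groups overlapped, and the difference was 0.048 ± 0.052 (adjusted p = 0.597). Rps29, a small zinc-binding protein, differed by 0.068 ± 0.055 and Rpl3, which reaches towards the peptidyl transferase centre, by 0.069 ± 0.062. The paralogue Rpl3l differed by 0.072 ± 0.117 and Rpl28 by 0.084 ± 0.106, both with wider errors.

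Nr4a3 against GFP asks the same of the second receptor, with the same GFP arrays. With all arrays 32 of 44 genes were lower and the median was -0.0745. Without replicate 2 of the Nr4a3 group 42 were higher, among them all 38 bright genes, with a median of 0.052 against 0.0195 over all genes. The median deviation per array averaged -0.028 with GFP and 0.032 in these 4 Nr4a3 arrays for the bright genes. For the 281 other genes as bright it averaged -0.010 and 0.037, so they shifted in the same direction. The count of 42 became 32 with median centring, 36 with repeated quantile normalization and 30 without GFP replicate 4 as well. The medians were then 0.0173, 0.0367 and 0.022, against -0.0154, -0.0098 and 0.0182 over all genes. None of the 44 passed limma's test either way, where 1.93% of all genes were called with all arrays and 3.71% without replicate 2. At an unadjusted p under 0.05 there were 1 and 3 genes, against 12.8% and 16.2% of all genes.

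The values of single genes turned with that array. Rpsa was 13.00, 10.60, 12.99, 12.80 and 12.98 in Nr4a3 replicates 1 to 5. Its difference from GFP was -0.33 ± 0.31 (SE, n = 5 per group; limma adjusted p = 0.671) with all arrays and 0.14 ± 0.059 (n = 4 and 5; adjusted p = 0.221) without replicate 2. Rps15 went from -0.41 to 0.096, and Rpl24 from -0.30 to 0.037. Rpl7 went from -0.46 to 0.0029, and to -0.032 with median centring of those 19 arrays.

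Rps27l was 9.34, 10.78, 9.76, 9.73 and 9.60 in the Nr4a3 arrays, replicate 2 the highest. It differed from GFP by 0.48 ± 0.20 (limma adjusted p = 0.295) and by 0.25 ± 0.139 (adjusted p = 0.417) without that array. Rpl30 (0.29) had the next largest positive difference with all arrays, and it was 0.077 without replicate 2. Without that array Rpl41 was the only 1 of the 44 genes with separate groups, a pattern of 7.46% of all genes. Its untreated arrays spanned 13.61 to 13.93, beside 13.85 to 13.93 with Nr4a3 and 13.70 to 13.82 with GFP. The 95% intervals of the bright genes then stayed within 0.325 of 0. Acinar markers had a median difference of 0.95 with none called. Of 8 endothelial markers 3 fell (37.5%, against 0.387% of all genes), and 1 without GFP replicate 4 too (12.5%, against 0.253%). The part of these markers in the ribosomal protein values was not tested.

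**Figure D4:**
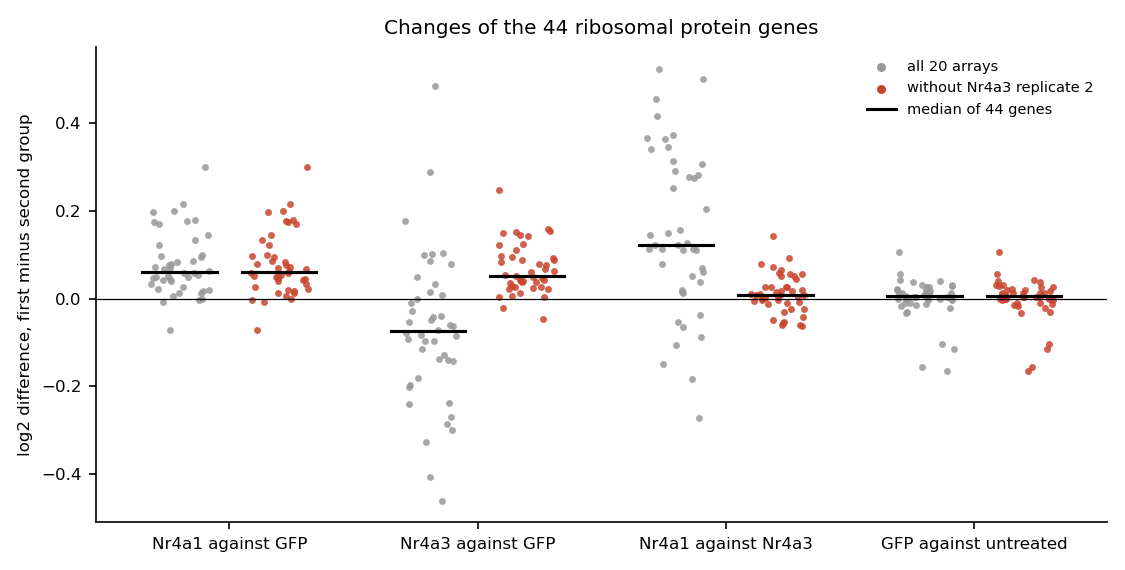
Log2 differences of the 44 ribosomal protein genes in 4 comparisons, first group minus second, with all 20 arrays (grey) and without Nr4a3 replicate 2 (red), and the median as a bar. The median for Nr4a3 against GFP moves from -0.0745 to 0.052 and that for Nr4a1 against Nr4a3 from 0.122 to 0.0079.

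Nr4a1 against Nr4a3 asks whether both receptors differ. With all arrays 36 of 44 genes were higher with Nr4a1, with a median of 0.122, and the largest differences were Rpsa (0.52 ± 0.31), Rps15 (0.50 ± 0.33), Rpl7 (0.45 ± 0.30), Rpl14 (0.42 ± 0.26) and Rps9 (0.37 ± 0.23). These 5 were all below every other array in Nr4a3 replicate 2, by deviations from -1.64 to -2.46. Without it the median was 0.0079, 27 were higher, and the same genes differed by 0.055, -0.0028, -0.010, 0.025 and 0.027. A repeated quantile normalization of those 19 arrays turned the median to -0.0059 with 21 higher, and median centring gave 0.0134 with 31 higher. Over all genes the median of those arrays was -0.0171, and -0.0128 and -0.0116 after these rescalings. None of the 44 was called by limma with or without Nr4a3 replicate 2, beside 0.633% and 0.935% of all genes. At an unadjusted p under 0.05 there were 2 and 0 genes, against 11.5% and 11.4% of all genes. Intervals of the bright genes then reached 0.285 at most.

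GFP against untreated asks what the virus itself changes. The direction of the genes depended on the processing: 26 of 44 were higher with GFP, and the median was 0.0051. Median centring gave 32 and 0.0088, and a repeated quantile normalization gave 15 and -0.011. Of all 14218 genes 6031 were higher, with a median of -0.017. The same rescalings gave, in that order, 6264 and -0.0133, and 6607 and -0.0070. None of the 44 was called, nor was any other gene (0% by limma with all arrays, 0% without Nr4a3 replicate 2), and none of the 44 had an unadjusted p under 0.05, against 2.9% of all genes with all arrays and 6.01% without that array. The 5 largest differences were, with all arrays, Rpl3l (-0.17 ± 0.12), Rps13 (-0.16), Rps27l (-0.11), Rps28 (0.11) and Rpl30 (-0.10). The bright genes' intervals lay within 0.297 of 0 without Nr4a3 replicate 2. Leaving out GFP replicate 4 too made 38 of 44 genes higher, with a median of 0.043 and none called.

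Genes that build, use or regulate ribosomes were set beside these values. Of 73 mitochondrial ribosomal protein genes, which serve the separate ribosome of mitochondria, 66 were higher with Nr4a1 than with GFP (median 0.155; 64 under both rescalings). Of them 6 rose (8.22%, against 6.16% of all genes), and 23 rose without Nr4a3 replicate 2 (31.5%, against 12.2%). Mrps31 rose by 0.52 ± 0.080 and Mrps24 by 0.49 ± 0.085 (limma adjusted p = 0.000265 and 0.000979). With Nr4a3, 1 rose, Mrpl36 (0.41 ± 0.096), a share of 1.37% against 1.75% of all genes. With that group's replicate 2 left out 5 rose (6.85%, against 3.32%), when 69 were higher (64 under both rescalings, where 3 and 2 rose, and 3 rose with GFP replicate 4 left out as well). Whether cytosolic and mitochondrial genes differ in response was not tested.

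For RNA polymerase I, which transcribes ribosomal RNA, 1 of 18 genes rose with Nr4a1, Polr1c (0.35 ± 0.086, limma adjusted p = 0.0139), a share of 5.56% near the 6.16% of all genes. The fit without Nr4a3 replicate 2 had 4 that rose (22.2%, against 12.2%), and 2 when those arrays were rescaled in either way. Of 84 ribosome biogenesis genes none was called with all arrays. Without that array 7 rose and 2 fell, the nucleolar Nhp2 by 0.40 ± 0.118 among them (limma adjusted p = 0.0226). The 7 are 8.33% of the list, below the 12.2% of all genes, and with GFP replicate 4 left out as well 0 rose and 2 fell. Neither list had a gene called with Nr4a3.

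Of 34 translation initiation genes 2 rose with Nr4a1, Eif4a3, an RNA helicase of the exon junction complex (0.58 ± 0.073, limma adjusted p = 3.26e-05), and Eif4e2, a cap-binding protein (0.36 ± 0.0999, adjusted p = 0.026). Their share of 5.88% was near the 6.16% of all genes. Eif4a3 alone rose with Nr4a3 (0.34 ± 0.073, adjusted p = 0.0178). Without Nr4a3 replicate 2, 8 rose (23.5%, against 12.2%) and 1 fell with Nr4a1, and 5 and 1 with GFP replicate 4 left out too or with median centring. Of 13 elongation genes 4 then rose (30.8%) and 1 fell, or 3 and 2 with repeated quantile normalization. With no rescaling the gene that fell was Eef2k, the kinase that inhibits elongation factor eEF2 (-0.40 ± 0.080, limma adjusted p = 0.00167). No elongation gene was called with all arrays.

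Of 28 regulators around mTORC1 and Myc, 2 rose and 4 fell with Nr4a1 (7.14% and 14.3%, against 6.16% and 2.55% of all genes). Leaving out Nr4a3 replicate 2 gave 4 that rose and 6 that fell (14.3% and 21.4%, against 12.2% and 6.86%), and 2 rose and 6 fell under both rescalings. Ddit4l, an inhibitor of mTOR signalling, differed by 4.09 ± 0.418 with Nr4a1 and 3.01 ± 0.418 with Nr4a3 (limma adjusted p = 2.86e-06 and 0.000457). Mycl, a Myc family factor, changed by -0.68 ± 0.130, Sesn2, a leucine sensor upstream of mTORC1, by -0.60 ± 0.114 and Deptor, a further mTOR inhibitor, by -0.30 ± 0.070 with Nr4a1. With Nr4a3 only Ddit4l of this list was called. Of 11 ribosomal proteins and relatives that the symbol rule leaves out, 4 were measured and none was called.

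The 33 probe sets with several symbols were not part of these counts. Their median difference was 0.063 for Nr4a1 against GFP (28 higher), and for Nr4a3 against GFP -0.141 (4 higher) with all arrays and 0.058 (31 higher) without Nr4a3 replicate 2. Between Nr4a1 and GFP the 2 further probe sets of Rpsa differed by 0.131 and 0.148, beside 0.20 for the set used. The second set of Rpl7 (mean 8.20) differed by 0.256 where the set used differed by -0.0073, and that of Rps24 (mean 6.56) by 0.75 where the set used differed by 0.17. None of these further sets was tested singly.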

How the data were processed

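RNA of 20 islet samples was hybridised to 1 array each. The deposited values are intensity values on a linear scale, which the authors made with RMA per the submitters' processing notes, which give no version. Here log2 was taken of each value, and arrays were not rescaled. Symbols came from the array's probe table: 20832 of 31099 probe sets have 1 symbol, 436 several and 9831 none, and 20764 were checked by gene identifier. The brightest probe set stood for each of 14218 genes.

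Differences between the 4 group means were estimated with limma 3.58.1 (R 4.3.3) in a single model of the 20 arrays and tested two-sided, with the script tested on simulated data. The same model without Nr4a3 replicate 2 stands beside it. P-values were adjusted by Benjamini-Hochberg over all genes, and a gene was called under 0.05. A spread marked ± is an SE for differences and an SD for group means. The number of arrays limits the precision.

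Members, gene lists and tests were chosen with earlier results of these data known. Members to name were those called, the 5 largest differences per comparison, the 3 brightest, the 3 dimmest, the 4 most variable, the named exceptions of the symbol rule and Rpl3 with Rpl3l. From the other lists the 4 smallest adjusted p-values in a comparison decided which genes could be named. Duct, fibroblast and stellate, and macrophage and leukocyte markers were also counted: 0 of 6, 0 of 8 and 0 of 7 were called in either comparison with GFP as control and all arrays. Without Nr4a3 replicate 2, 1 duct (Krt7) and 1 fibroblast marker (Pdgfrb) were called lower with Nr4a1. Alternatives covered scaling, variance, array weights, probe sets, filters, single arrays left out and the replicate number as a block.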

Additional observations from a re-analysis of the deposited data

Results flagged for a closer look

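Single arrays far from the rest of their group were looked for among the named genes and the mean of all 44. Of 76 groups checked 16 stood out by Dixon's criterion (21.1%), and 14 of the 16 were at Nr4a3 replicate 2. Chance flags about 1 in 20 groups, but several of these genes were named for their spread or differences with that array included, so the share cannot be read against that rate. There the mean of the 44 genes was 11.81. The genes that stood out there on the low side were Rpl14 at 10.43, Rps15 at 10.50, Rpsa at 10.60, Rpl7 at 11.44, Rpl24 at 11.45, Rps9 at 11.69, Rpl18 at 11.99, Rplp0 at 12.40, Rpl3 at 12.83 and Rps6 at 13.47, each below the other 4 Nr4a3 arrays. Rps13 at 5.29, Rpl30 at 5.91 and Rps27l at 10.78 were above the other 4. Elsewhere, Rplp0 was high in untreated replicate 2 (13.64) and Rpl3l in GFP replicate 5 (6.08).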

How the results depend on the processing

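Of 34 alternatives, the 4 that combine a left-out array with a further change were chosen after seeing the data. The number of ribosomal protein genes called for Nr4a1 against GFP was 0 with all arrays, and 0 to 3 when single arrays were left out, 3 being without Nr4a3 replicate 2. It was 3 with only the 10 arrays compared, 2 with array weights, 1 without Nr4a3 replicate 2 and GFP replicate 4, and, without Nr4a3 replicate 2, 3 with median centring and 3 with repeated quantile normalization. For the other comparisons it was 0 under all alternatives run. The median over the 44 genes ranged from 0.0167 to 0.0774 for Nr4a1 against GFP, from -0.12 to 0.0703 for Nr4a3 against GFP, from -0.00821 to 0.17 for Nr4a1 against Nr4a3 and from -0.0142 to 0.0432 for GFP against untreated.

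Over all genes the calls ranged from 742 (without Nr4a1 replicate 1) to 3578 (array weights) for Nr4a1 against GFP, beside 1239. They ranged from 122 (only the arrays compared) to 1027 (array weights) for Nr4a3 against GFP, beside 274, and from 1 to 274 under the same settings for Nr4a1 against Nr4a3, beside 90. Without Nr4a3 replicate 2 the split for Nr4a1 against GFP was 1740 higher and 975 lower, and 1543 and 1336 after repeated quantile normalization. For Nr4a3 against GFP it was 472 and 55, and 367 and 116.

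Some genes changed sign. Over single left-out arrays the difference between Nr4a3 and GFP ran from -0.594 to 0.00293 for Rpl7, from -0.545 to 0.0961 for Rps15, from -0.458 to 0.142 for Rpsa and from -0.398 to 0.0366 for Rpl24. For Nr4a1 against Nr4a3 it ran from -0.00282 to 0.639 for Rps15 and from -0.0102 to 0.587 for Rpl7. Nr4a3 replicate 2 alone turned these signs. With array weights Rps15 was 0.0564 and Rpsa 0.0963 for Nr4a3 against GFP. Without Nr4a3 replicate 2 and GFP replicate 4 they were 0.081 and 0.121, with median centring and no replicate 2 they were 0.0612 and 0.108, with Rpl24 at 0.00173, and with repeated quantile normalization 0.00776 and 0.0611. The mean of all probe sets put Rpl7 at 0.127 for Nr4a3 against GFP and at -0.00254 for Nr4a1 against Nr4a3. For the latter comparison Rps15 was -0.00282 and Rpl7 -0.0102 without both arrays, and Rpl7 was -0.00475 with centring and -0.0225 with quantile normalization. The cause was not tested.

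The labels do not say whether a replicate number marks a shared animal or day. Same-numbered samples had residual correlations from -0.297 to 0.495 (7 of 30 pairs over 0.1), and 4 of 30 correlated best with their own number. With 5 arrays per group, Nr4a3 replicate 2 among them, these values cannot settle whether the samples were paired. With the replicate number as a block 0 ribosomal protein genes were called in each comparison, and 1088 of all genes for Nr4a1 against GFP. The block without Nr4a3 replicate 2 called 2 (Rplp0 and Rpsa), and gave Rpl7 0.0106, Rps15 0.103, Rpsa 0.153 and Rpl24 0.0542 for Nr4a3 against GFP, and Rps15 -0.00984 and Rpl7 -0.0179 for Nr4a1 against Nr4a3.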
